A study of Homo sapiens with 4 samples.

Results

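Interferon-stimulated genes are the genes that a cell transcribes when an interferon binds its receptor. A list of 47 members was followed in BEAS-2B, an established line of human bronchial epithelial cells. The list also holds genes that act before that step, namely IFNB1, the receptor genes IFNAR1 and IFNAR2, and IRF3. The members were chosen by gene symbol, and all 47 symbols were found once among the 39634 genes of the raw count table. The question was how high these genes stand in this line and whether they differed after a short hairpin RNA (shRNA) against Fer. A double-stranded RNA such as a hairpin can itself set off an interferon response.

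BEAS-2B cells were grown in N2B27, a defined serum-free medium, and polyadenylated RNA was sequenced in 4 libraries. The control group is 2 libraries of cells with a control shRNA (shControl), labelled CTL. The other group is 2 libraries of cells with an shRNA against Fer (shFer), labelled as Fer knockdown. All 4 libraries therefore come from 1 cell line that carries an shRNA, and cells without any shRNA were not analysed here. A response common to both hairpins cannot be seen in the contrast, and the control level is not that of cells without a hairpin. The sources used here give neither the hairpin sequences, nor the vector, nor whether the cells were a clone or a pool. Nothing in the labels ties the replicates to separate cultures, so a p-value here reflects just the variation among these 4 libraries, and that variation may be technical. In bulk RNA, fewer cells that express a gene and less of its RNA per cell cannot be told apart.

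Interferon is induced when sensors of foreign RNA, such as RIG-I and MDA5, signal to the transcription factors IRF3 and IRF7. Secreted interferon beta then binds the receptor IFNAR1 and IFNAR2, and a complex that holds STAT2 and IRF9 enters the nucleus. That complex binds a short DNA motif, the interferon-stimulated response element, in the promoters of its target genes. Airway epithelium is a main site of this response, which limits the spread of inhaled viruses.

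Library totals ran from 21422976 to 25169713 counts. FER itself was at 16.3 and 21.2 CPM (counts scaled to TMM-adjusted library sizes) under shControl and at 17.8 and 20.1 CPM under shFer. At 0.02 ± 0.17 on the log2 scale (SE, edgeR's quasi-likelihood test, adjusted p = 0.976), the mRNA goes against the knockdown label, so the second group is called the libraries labelled shFer. Genes of the mitochondrial chromosome took 16.9% and 19.4% of counts in the control libraries and 9.62% and 9.37% in the other 2. Between replicates, the 2 control libraries stood further apart, with a median absolute log2 difference of 0.264 over tested genes against 0.119. Of 11 epithelial markers, KRT8 and KRT18 carried most of a summed 2761 to 3481 CPM, while of the basal cell markers KRT5, KRT14 and TP63 were at 0.528 CPM or less and KRT17 was at 21.95 to 43.7 CPM. Of the rest, KRT7 was at 211 to 309 CPM and CLDN1 at 67.5 to 81.2 CPM. CDH1 was at 7.33 to 10.5 CPM, KRT19 at 5.63 to 7.71 CPM and EPCAM at 2.74 to 4.97 CPM. Immune markers summed to 22.4 to 29.3 CPM, most of it CD14, with CD3E and CLEC4C at 0 in all 4 libraries. Fibroblast markers summed to 89.95 to 118 CPM, with DCN and LUM at 0, COL1A1 at 56.7 to 81.2 CPM and PDGFRB at 28.7 to 35.9 CPM. Endothelial markers summed to 1.89 to 2.98 CPM.

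The response element is the motif bound by the complex with STAT2 and IRF9, and not every member holds it. The promoters of the 5 most highly expressed members that hold its long form are shown, to let the motif be seen in its context. They come from RefSeq on build GRCh38.p14 and run from 250 bases before to 50 bases after the transcription start, 5′ to 3′ along the gene. Capitals mark matches to the core form, which is GAAA, any 2 bases and GAAA, and to the long form, which is the core followed by CT. Both were searched on both strands. IFITM3 lies at chr11:320811-321110 on the minus strand and ISG15 at chr1:1013247-1013546 on the plus strand. IFI6 lies at chr1:27672143-27672442 (minus), BST2 at chr19:17405581-17405880 (minus) and IFITM1 at chr11:313790-314089 (plus).
IFITM3: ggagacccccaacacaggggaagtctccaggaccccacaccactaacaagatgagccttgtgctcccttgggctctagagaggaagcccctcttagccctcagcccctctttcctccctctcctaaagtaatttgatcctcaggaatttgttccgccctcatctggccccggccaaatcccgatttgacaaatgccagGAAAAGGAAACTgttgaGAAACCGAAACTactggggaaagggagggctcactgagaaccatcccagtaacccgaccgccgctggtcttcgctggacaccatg
ISG15: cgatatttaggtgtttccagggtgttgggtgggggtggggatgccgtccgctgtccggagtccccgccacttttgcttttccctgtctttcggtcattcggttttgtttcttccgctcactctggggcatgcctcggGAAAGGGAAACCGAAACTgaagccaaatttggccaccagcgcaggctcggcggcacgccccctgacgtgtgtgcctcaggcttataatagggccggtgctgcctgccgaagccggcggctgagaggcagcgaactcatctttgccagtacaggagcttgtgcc
IFI6: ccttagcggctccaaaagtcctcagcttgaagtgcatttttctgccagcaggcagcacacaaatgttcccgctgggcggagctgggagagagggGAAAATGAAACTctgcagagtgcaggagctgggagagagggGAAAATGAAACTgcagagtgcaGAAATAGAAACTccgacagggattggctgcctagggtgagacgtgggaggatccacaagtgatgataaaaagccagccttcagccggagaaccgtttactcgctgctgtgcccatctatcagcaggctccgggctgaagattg
BST2: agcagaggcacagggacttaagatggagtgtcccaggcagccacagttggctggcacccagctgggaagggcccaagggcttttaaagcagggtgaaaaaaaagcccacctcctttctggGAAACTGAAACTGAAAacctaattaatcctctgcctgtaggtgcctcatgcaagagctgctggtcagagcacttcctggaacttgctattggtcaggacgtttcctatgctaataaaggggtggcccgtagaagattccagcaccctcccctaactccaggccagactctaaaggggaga
IFITM1: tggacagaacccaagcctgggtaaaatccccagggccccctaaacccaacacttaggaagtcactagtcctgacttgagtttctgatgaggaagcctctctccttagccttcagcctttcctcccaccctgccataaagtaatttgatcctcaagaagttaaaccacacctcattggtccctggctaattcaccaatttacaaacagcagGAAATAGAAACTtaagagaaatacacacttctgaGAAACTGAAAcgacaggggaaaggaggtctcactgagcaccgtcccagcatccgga

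RefSeq promoters were matched for 36 of the 47 members, DDX58 under its newer symbol RIGI, and a gene with several starts was counted once. The core form was present in 22 of the 36 (61.1%), against 4.38% of all 27305 genes with a promoter in the table. The long form, each match of which is also a match to the core, was present in 14 of the 36 (38.9%) against 0.322% of all genes. These 14 are IFIT1, IFIT3, IFIT5, IFI6, IFI27, IFI44, ISG15, HERC5, EIF2AK2, BST2, IFITM1, IFITM3, MX1 and PARP9. Matches, unlike genes, were counted over all starts, so a site within reach of several starts can enter more than once. The first base of the 22 long matches lay between 189 bases before and 12 bases after a start, with a median of 57.5 bases before it. The printed promoters show the variety: IFI6 holds 3 separate long matches, IFITM3 holds 2, which begin 52 and 35 bases before the start, and in ISG15 and BST2 a core match overlaps the long one. A motif of the gamma-activated type, TTCNNNGAA, was present in 11 of the 36 (30.6%) against 9.38% of all genes. Of its 14 matches, also counted over all starts, 5 overlap a core match. A match is only a stretch of letters in this window, and it does not show that a factor binds there.

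**Figure D1:**
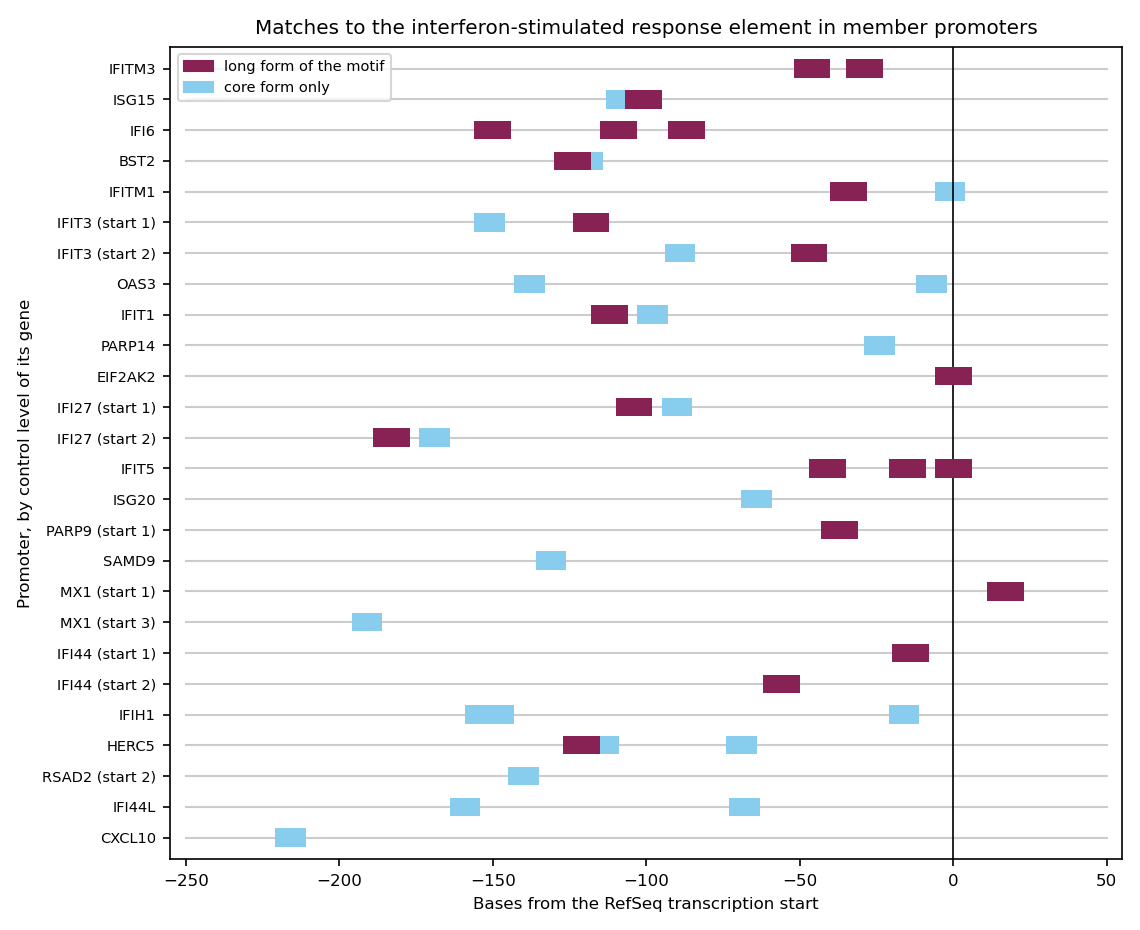
Positions of response element matches in the promoters of members that hold one, from 250 bases before to 50 after the RefSeq start (x axis, bases), with the most highly expressed genes in control at the top. Dark bars are the long form and light bars the core form only; the long form's first base has a median of 57.5 bases before the start, and genes with several starts have a row for each.

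The members were broadly expressed in the control cells. Levels of different genes are compared per length, as RPKM, the CPM divided by the deposited gene length in kilobases. The 47 members had a median of 6.03 RPKM in control, against 1.22 RPKM over the 21982 genes with a count there. Of the members, 39 stood above the 50th percentile of those genes, 22 above the 75th and 13 above the 90th. IFITM3 was the highest at 973 ± 84.0 RPKM (SD, n = 2), followed by IFITM2 at 168, ISG15 at 140, IFI6 at 107, BST2 at 67.2 and UBE2L6 at 57.2. At the other end, IFNB1 had no count, and CXCL10, CXCL11, IFNAR2, XAF1, IFI44L and MX2 lay at or below 0.348 RPKM. The 14 members with the long response element had a median of 9.16 RPKM and the other 22 with a matched promoter 5.51 RPKM. For the core form the order was reversed, with a median of 5.03 RPKM for members with it and 7.47 RPKM for those without. Among the members with a count, control levels ran from the 21.7th percentile (CXCL10) to the 99.9th (IFITM3).

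**Figure D2:**
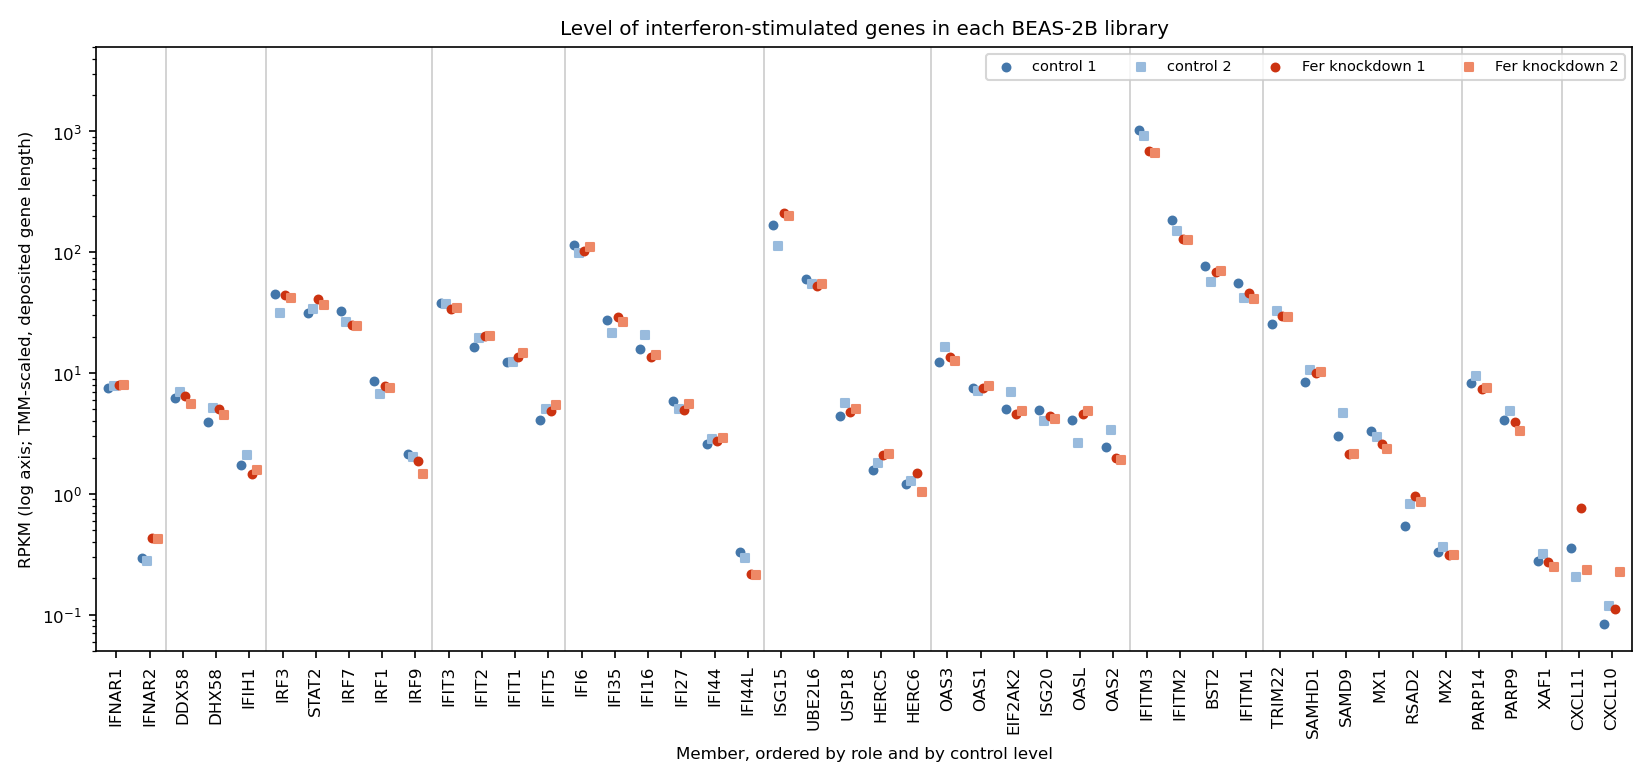
Level of 46 members in each of the 4 libraries (y axis, RPKM, log scale), grouped by role and ordered by control level within a role; IFNB1, with no count, is not drawn. Points of 1 gene lie close together compared with the distance between genes, from 0.100 RPKM for CXCL10 to 973 RPKM for IFITM3 in control.

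None of the members passed the test between the groups. Of the 47, 45 passed the filter on low counts, and at an adjusted p under 0.05 in edgeR's quasi-likelihood test 0 were higher and 0 lower in the libraries labelled shFer. Over all 15336 tested genes that rule called 0.646%, with 0.280% higher and 0.365% lower. At an unadjusted p under 0.05 the members gave 2 higher and 6 lower, 17.8% of the 45, and all tested genes gave 17.7% (8.95% higher and 8.77% lower). DESeq2 called 2 members, IFITM3 and SAMD9, both lower (4.69% of its genes were called), and limma-voom called 0 (1.16%). The median log2 fold change of the tested members was -0.03, with 21 positive and 24 negative, and that of all tested genes was 0.01. With library totals alone in place of TMM scaling, these medians were 0.13 and 0.18, and 2.89% of all genes but none of the members were called.

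An increase of 2-fold or more lay outside the 95% interval of the fold change for 42 of the 45 tested members. This was 93.3% of them, against 84.5% of all tested genes. The exceptions were CXCL11, IFNAR2 and RSAD2, which were among the least expressed. For 39 of the 45 the interval lay wholly within 2-fold in both directions (86.7%, against 75.6% of all tested genes). The groups did not overlap for 26 members, 10 with both libraries labelled shFer above both controls and 16 with both below. This was 57.8% of the tested members, and over all tested genes it held for 49.2% (25.8% above and 23.4% below). Counts of 11 members are uncertain, because at least 10% of their exonic bases lie under exons of other genes or because they belong to the IFITM family, and without them the median was -0.04 over 34 members.

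**Figure D3:**
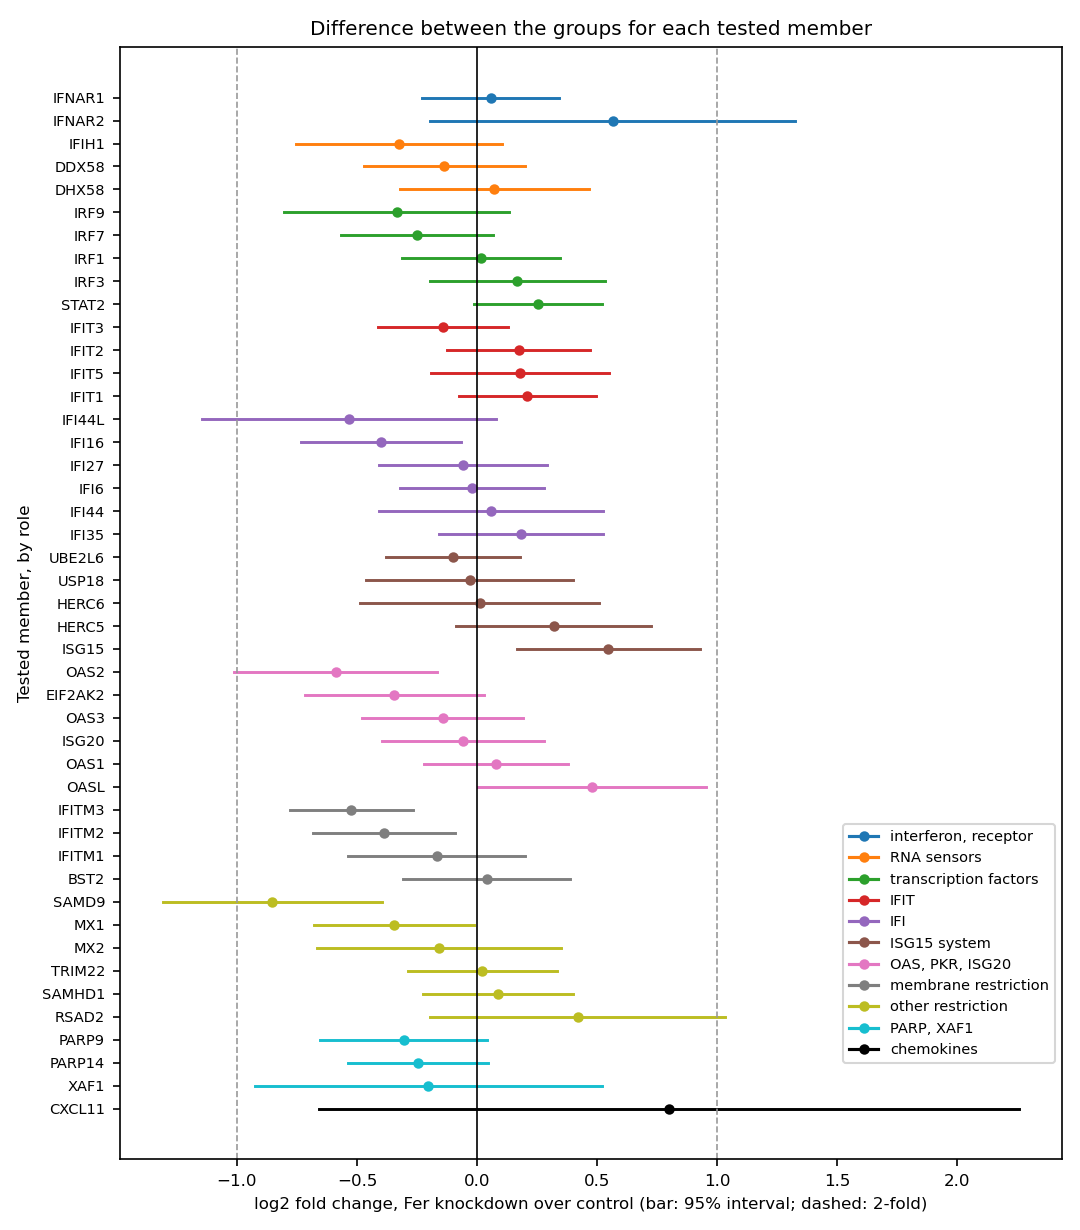
Log2 fold change of the 45 tested members (x axis, libraries labelled shFer over control), with its 95% interval as a bar, coloured by role; dashed lines mark 2-fold. The intervals of 42 members end left of the upper line, and those of CXCL11, IFNAR2 and RSAD2 cross it.

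Interferon beta and its receptor are described first. IFNB1 had 0 counts in all 4 libraries, and a count of 0 allows up to 0.113 to 0.147 CPM per library. IFNAR1, the long-known signalling chain of the receptor, was at 51.6 and 54.1 CPM in the control libraries and at 54.91 and 54.97 CPM in the other 2. The 4 values lie within a narrow band (log2 fold change 0.06 ± 0.13 SE, adjusted p = 0.867), with the libraries labelled shFer just above. IFNAR2, the other chain, was at 1.37 and 1.29 CPM in control and at 1.98 and 1.96 CPM in the libraries labelled shFer. Both were above both controls, by 0.56 ± 0.34 on the log2 scale (SE, adjusted p = 0.429). Exons of other genes cover 83.3% of the exonic bases of IFNAR2, so its low count is uncertain.

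None of the 3 cytoplasmic RNA sensors passed the threshold between the groups. DDX58, which encodes RIG-I, was at 28.7 and 32.1 CPM in control and 29.8 and 25.6 CPM in the libraries labelled shFer. Its groups overlapped, with a difference of -0.14 ± 0.15 on the log2 scale (SE, adjusted p = 0.688) that turned to 0.028 with library totals alone. IFIH1, which encodes the long-RNA sensor MDA5, was at 8.80 and 10.7 CPM against 7.49 and 8.10 CPM (log2 fold change -0.33 ± 0.19 SE, adjusted p = 0.414). Here both values were below both controls. DHX58, which encodes the regulator LGP2, overlapped between the groups at a mean of 17.4 and 18.3 CPM.

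Among the transcription factors, IRF3, which is activated directly below the sensors, was the highest per length at 38.4 RPKM in control. STAT2, a subunit of the complex that binds the response element, was at 196 and 209 CPM in control and at 255 and 229 CPM in the libraries labelled shFer. Both values lay above both controls, by 0.25 ± 0.12 on the log2 scale (SE, adjusted p = 0.302). IRF7, an amplifier of interferon induction, was at 85.6 and 69.1 CPM against 65.4 and 64.5 CPM. It lay below both controls (log2 fold change -0.25 ± 0.14 SE, adjusted p = 0.393), at -0.095 without control replicate 1 and at -0.42, called, without replicate 2. IRF9, the DNA-binding subunit of the complex, was at 2.09 RPKM in control, far below STAT2, and its log2 fold change was -0.34 (48.4% exon overlap). IRF1 and IRF3 overlapped between the groups at 0.02 and 0.17 (22.0% and 19.4% exon overlap).

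The IFIT proteins bind viral RNA ends and block its translation, and their 4 genes form a cluster on chromosome 10. IFIT3 was the highest of them at 37.6 RPKM in control. IFIT1 was at 56.7 and 56.6 CPM in control and at 63.1 and 67.8 CPM in the libraries labelled shFer, above both controls (log2 fold change 0.21 ± 0.13 SE, adjusted p = 0.437). IFIT2 was at 67.5 and 79.3 CPM against 82.2 and 83.3 CPM, also above both (0.17 ± 0.13 SE, adjusted p = 0.547, 10.3% exon overlap). It was at 0.056 without control replicate 1 and at 0.27, called, without replicate 2. IFIT3 lay below both controls at -0.14, and IFIT5 overlapped at 0.18. The 4 genes of this cluster, all strongly induced by interferon in textbook accounts, therefore spanned -0.14 to 0.21 with TMM scaling. With library totals alone all 4 were positive, from 0.02 (IFIT3) to 0.37 (IFIT1).

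The 6 genes named IFI are a mixed group. IFI6, an inhibitor of mitochondrial apoptosis, was the highest at 107 RPKM and overlapped between the groups (log2 fold change -0.02). IFI16, a nuclear DNA sensor, was at 83.6 and 109 CPM in control and at 71.4 and 74.5 CPM in the libraries labelled shFer. It lay below both controls at -0.40 ± 0.15 (SE, adjusted p = 0.206), at -0.58, called, without control replicate 1 and at -0.22 without replicate 2. IFI44L was at 3.38 and 3.04 CPM against 2.25 and 2.18 CPM, also below both, at -0.53 ± 0.28 (SE, adjusted p = 0.347). IFI27, IFI35 and IFI44 overlapped between the groups at -0.06, 0.18 and 0.06. Of the 6, the intervals of all but IFI44L lay within 2-fold.

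ISG15 is a ubiquitin-like protein that is attached to other proteins in interferon-treated cells. It was at 145 and 98.5 CPM in the control libraries and at 182 and 172 CPM in the libraries labelled shFer. Both values were above both controls, which lay far apart from each other, and the difference of 0.55 ± 0.17 on the log2 scale missed the threshold (SE, adjusted p = 0.148). The enzymes that attach and remove ISG15 had their own values, and no difference between them and ISG15 was tested. UBE2L6, its conjugating enzyme, was at -0.10, and USP18, which removes it and dampens receptor signalling, at -0.03, with overlapping groups in both. HERC5, its main ligase, was at 7.58 and 8.53 CPM against 9.95 and 10.2 CPM (0.32 ± 0.18 SE, adjusted p = 0.397), above both controls, and its relative HERC6 overlapped at 0.01.

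OAS enzymes make the second messenger that activates RNase L, and EIF2AK2 encodes PKR, the kinase that halts translation on double-stranded RNA. OAS3 was the highest of this group at 14.4 RPKM and overlapped between the groups (-0.14). OAS2 was at 15.3 and 21.3 CPM in control and at 12.5 and 11.9 CPM in the libraries labelled shFer, below both controls, at -0.59 ± 0.19 (SE, adjusted p = 0.156). OASL, a relative without that enzyme activity, was at 14.5 and 9.22 CPM against 16.0 and 17.0 CPM. It lay above both controls at 0.48 ± 0.21 (SE, adjusted p = 0.279). Without control replicate 1 it was at 0.83 and called, and without replicate 2 at 0.16 and not called; OAS2 was at -0.81 (called) and -0.35 (not called). The 4 genes of the OAS family, all on chromosome 12, thus had differences of both signs, with OAS1 at 0.08. EIF2AK2 was below both controls at -0.35 (adjusted p = 0.315), and the exonuclease gene ISG20 overlapped at -0.06.

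Among the genes for membrane proteins that hold back viral entry or release, IFITM3 had the smallest p of all 47 members. IFITM3 blocks virus fusion in endosomes. It was at 1188 and 1052 CPM in control and at 798 and 759 CPM in the libraries labelled shFer, below both controls. At -0.52 ± 0.11 on the log2 scale (SE, 95% interval -0.78 to -0.27) the difference missed the threshold (adjusted p = 0.0671). IFITM2, its close paralog, was at 288 and 231 CPM against 200 and 196 CPM, also below both, at -0.39 ± 0.13 (SE, adjusted p = 0.176). IFITM1 overlapped between the groups at -0.17, or -0.0020 with library totals alone. The 3 are paralogs, and exons of other genes cover 21.3% to 32.5% of their exonic bases, so their counts are uncertain. BST2, the tether that holds budding virions on the cell, overlapped between the groups at 0.04.

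Of the other restriction factors, TRIM22 was the highest at 29.01 RPKM and overlapped between the groups at 0.02 (10.7% exon overlap). SAMD9, which restricts poxviruses, was at 20.8 and 32.2 CPM in control and at 14.8 and 14.7 CPM in the libraries labelled shFer. It had the lowest fold change of the members, -0.85 ± 0.21 (SE, adjusted p = 0.0848), and lay below both controls. MX1, a dynamin-like GTPase that blocks influenza viruses, was at 28.5 and 25.5 CPM against 22.1 and 20.4 CPM (-0.35 ± 0.15 SE, adjusted p = 0.264), and at -0.45, called, without control replicate 2. Its paralog MX2 was also below both controls at -0.16. RSAD2, which encodes viperin, was above both at 0.42 on 52 to 107 counts per library. SAMHD1, which depletes nucleotides, overlapped at 0.09.

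The ADP-ribosyltransferase genes PARP9 and PARP14 and the apoptosis factor XAF1 all had negative fold changes. PARP9 was at 36.3 and 43.4 CPM in control and at 35.1 and 29.5 CPM in the libraries labelled shFer (-0.31 ± 0.16 SE, adjusted p = 0.340). PARP14 was at 84.8 and 97.2 CPM against 75.6 and 77.8 CPM (-0.25 ± 0.13 SE, adjusted p = 0.360), and XAF1 was at -0.20 on 38 to 46 counts (38.3% exon overlap). With TMM scaling all 3 lay below both controls, as 23.4% of all tested genes did. With library totals alone PARP9 was at -0.14, PARP14 at -0.08 and XAF1 at -0.04. Without control replicate 1 PARP9 was at -0.44 and PARP14 at -0.35, both called, and without replicate 2 they were at -0.20 and -0.17, not called.

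CXCL10 and CXCL11, chemokines that draw T cells and are among the most interferon-dependent genes known, were near the limit of detection. CXCL10 had 2 and 3 counts under shControl and 3 and 7 under shFer, was too low to be tested and is given no fold. CXCL11 had 13 and 8 counts against 31 and 11. Its log2 fold change of 0.80 ± 0.65 (SE, adjusted p = 0.573) rests on replicate 1 of the libraries labelled shFer and was -0.27 without it. The groups overlapped for both chemokines.

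All member counts together made up a small and similar share of each library. They took 0.350% (95% Wilson interval 0.347 to 0.352, counting error only) and 0.335% (0.333 to 0.338) of the control libraries. They took 0.350% (0.347 to 0.352) and 0.338% (0.336 to 0.341) of the libraries labelled shFer. IFITM3 alone gave 31.9% and 29.8% of the member counts in control, and 24.2% and 23.7% in the other 2 libraries. Without IFITM3 the share was 0.238% and 0.235% in control and 0.265% and 0.258% in the libraries labelled shFer, so these groups did not overlap. The mitochondrial share of counts differed between the same groups. With mitochondrial genes left out of the totals, the shares were 0.421% and 0.416% in control against 0.387% and 0.373%, and without IFITM3 they overlapped (0.286% and 0.292% against 0.293% and 0.285%).

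How firmly a member differed turned on the 2 control libraries. The median absolute log2 difference between them was 0.282 over the tested members, against 0.074 between the libraries labelled shFer. Across the 45 tested members, the log2 ratio of control replicate 2 to replicate 1 correlated with the GC content of the longest coding transcript (Pearson r = -0.51, Spearman rho = -0.54) and with its log2 length (r = 0.64, rho = 0.65). Genes within a library are not independent replicates, so no p is given. Over 15312 tested genes the values were r = -0.33 and rho = -0.45 for GC, and r = 0.28 and rho = 0.40 for length. The ratio of the libraries labelled shFer had a rho of -0.12 for GC and 0.01 for length over the members, and the fold change between the groups had 0.04 and -0.16. The part of transcript length and GC content in the differences between the groups was not tested.

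**Figure D4:**
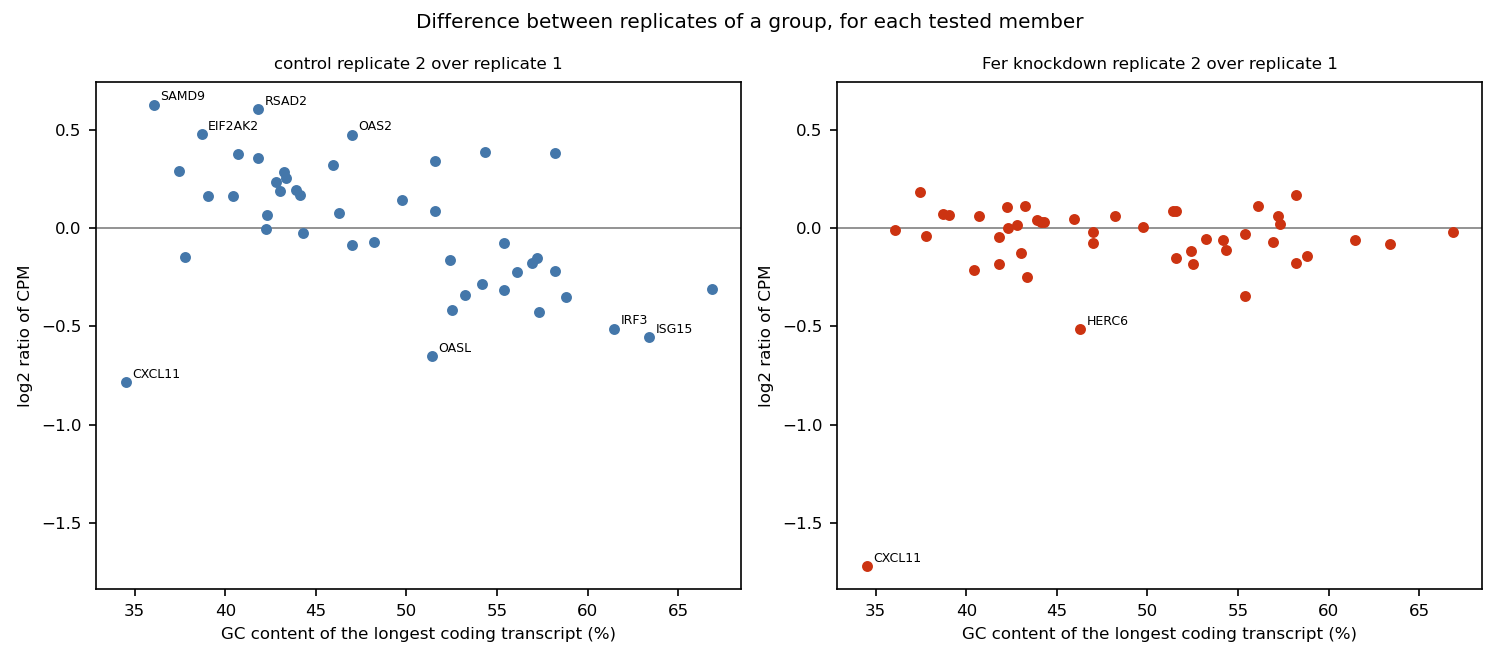
Log2 ratio of CPM between the replicates of each group (y axis) against the GC content of the longest coding transcript (x axis, percent) for the 45 tested members; the left panel is control and the right panel the libraries labelled shFer. The control ratios slope down (r = -0.51) from SAMD9 to ISG15, with CXCL11 as an exception at low GC, and the largest of the other ratios are the negative ones of CXCL11, HERC6, IRF9 (-0.34) and PARP9 (-0.25).

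Leaving out either control library brought calls, for members and for all genes alike. The lone control is then assumed to vary like the other group. Without control replicate 1, 15 of 45 members were called (33.3%, against 29.5% of all tested genes), 6 higher and 9 lower (14.6% and 14.9% of all genes). Without control replicate 2, 10 were called (22.2% against 20.6%), 4 higher and 6 lower (9.49% and 11.1%). These fits share the libraries labelled shFer, so the 5 members called in both are given by their values only. ISG15 was at 0.84 and 0.27 in the 2 fits, STAT2 at 0.21 and 0.28, IFITM2 at -0.23 and -0.56, IFITM3 at -0.44 and -0.63, and SAMD9 at -1.14 and -0.53. For 15 members the sign differed between these fits, among them IRF3, at 0.44 and -0.09, and BST2, at 0.26 and -0.18. Without replicate 1 of the libraries labelled shFer, 0 members were called, where 0.713% of all genes were (0.488% higher and 0.225% lower), and without replicate 2, 0 were called, where 0.352% were (0.195% and 0.157%).

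**Figure D5:**
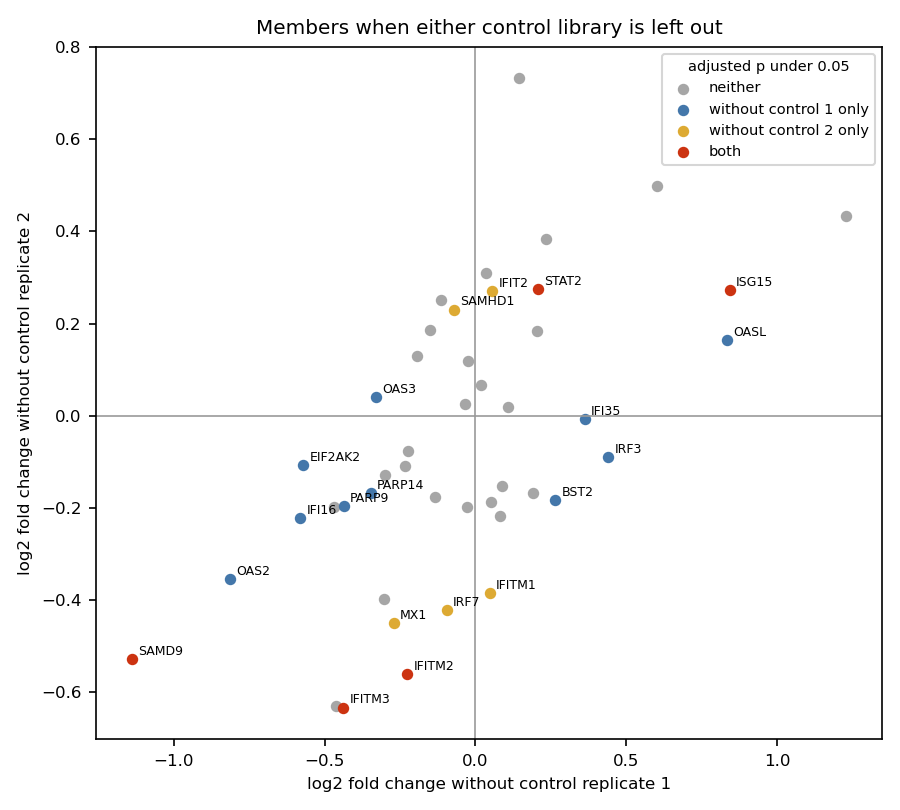
Log2 fold change of each tested member without control replicate 1 (x axis) and without control replicate 2 (y axis), coloured by which fit gave an adjusted p under 0.05. The 5 members called in both are ISG15 and STAT2 at the upper right and SAMD9, IFITM2 and IFITM3 at the lower left, and 15 members lie in the quadrants where the signs differ.

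The rest of the interferon pathway was read from a list of 81 further genes. Of 20 other interferon genes, 16 had no count in any library. IFNE, an interferon of epithelial surfaces, was the only one to pass the filter, at 4.11 and 3.73 CPM in control and 2.11 and 2.52 CPM in the libraries labelled shFer (log2 fold change -0.75, adjusted p = 0.186). The kinases that signal from the receptor were present, with JAK1 at 8.36 RPKM and TYK2 at 28.2 RPKM in control. Of the 56 tested pathway genes, 0 were called in either direction by edgeR's quasi-likelihood test, where 0.646% of all genes were, and 17 had an unadjusted p under 0.05, 3 higher and 14 lower (30.4%, against 17.7% of all genes). Their median log2 fold change was -0.09 against 0.01 over all tested genes. DESeq2 called 4 of 54, all lower (7.41%, against 4.69% of all genes), and limma-voom called 1, PML (1.79% against 1.16%). The 2 with the smallest p were LGALS9, which encodes galectin-9, and PML, the scaffold of PML nuclear bodies. LGALS9 was at 10.9 and 9.73 CPM against 5.06 and 5.54 CPM (-0.96 ± 0.19 SE, adjusted p = 0.0555). PML was at 278 and 276 CPM against 192 and 185 CPM (-0.55 ± 0.11 SE, adjusted p = 0.0560). Both libraries labelled shFer lay below both controls for each. Without control replicate 1, 30 of 58 pathway genes were called, 7 higher and 23 lower (51.7%, against 29.5% of all genes). Without control replicate 2, 18 of 58 were called, 6 higher and 12 lower (31.0% against 20.6%). Both fits use the same libraries labelled shFer, and the list was not tested against other genes.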

How the data were processed

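The authors deposited 1 table of raw counts, with an identifier, a symbol and a length for each gene, per the file headers. The submitters' processing notes name the tools HISAT2, featureCounts and DESeq2 and the builds hg19 and mm10, with no role for each. The strand setting and the annotation release: not given in the sources used here. Of 39635 entries, 1 without values was dropped. The column for replicate 1 of the libraries labelled shFer has a shortened name and was matched by group and number.

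Members and lists were chosen with earlier results of these data known. Genes were kept by filterByExpr and scaled by TMM in edgeR 4.0.16 (R 4.3.3). The quasi-likelihood test was two-sided, with 2 residual degrees of freedom, no block and Benjamini-Hochberg adjustment over 15336 genes at 0.05. The SE is the fold change over the root of the test statistic. CPM and RPKM use TMM-scaled totals. On simulated counts (15126 genes in the fit) the test found 32 of 67 genes set to differ by 1.5-fold, 61 of 67 set to 2-fold and all 66 set to 4-fold, with 9 false calls. The genes set to differ were drawn from the better expressed ones, and both groups were given the same spread, taken from the trend over genes. The real control libraries stood further apart than those labelled shFer, so these rates may not hold for the members. Statistics are given for the 2 members with the smallest p in each of 11 role lists. Members named without them are given by value, and those singled out beyond the rule were chosen after their values were seen. Exon overlap, GC content and transcript length came from GENCODE release 29, which is on another build than hg19, and promoters from RefSeq. Alternatives were other scalings, DESeq2 1.42.0, limma-voom (limma 3.58.1), other filters, a replicate block, no mitochondrial genes, and each library left out. Replicate numbers do not pair the libraries by any label, and the deviations of same-numbered libraries correlated at 0.037.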

Additional observations from a re-analysis of the deposited data

How the results depend on the processing

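Few counts limit what can be said of CXCL10, CXCL11, XAF1 and IFNAR2, and 2 libraries a group limit the rest. The count of members whose interval lay below a 2-fold increase, 42, ran from 39 (all members tested, with a filter of 5 CPM) to 43 (no filter) over the fits run. The count of called genes, 99 (0.646% of all tested genes), was 192 (1.25%) with upper-quartile factors and 443 (2.89%) with library totals alone. This count was 580 (4.69%) in DESeq2 and 178 (1.16%) in limma-voom. With no filter on low counts this count was 993 (4.14%), and with a filter of 5 CPM 117 (1.06%). With each library left out it ran from 56 to 4734. Members called higher, 0, were 1 with no filter (ISG15) and 0 to 6 with a library left out. Members called lower, 0, were 2 in DESeq2, 3 with no filter (IFITM3, OAS2 and SAMD9) and 0 to 9 with a library left out. The members' median, -0.03, was 0.13 with library totals alone and -0.11 to -0.033 with a library left out. Pathway genes called, 0, were 2 with upper-quartile factors, 4 in DESeq2, 1 in limma-voom, 6 with no filter, 1 with a filter of 5 CPM and 0 to 30 with a library left out. With the replicate number as a block, 990 genes were called (6.46% of all tested genes), 6 of them pathway genes. Among these calls were ISG15 higher and IFITM3, OAS2 and SAMD9 lower (1 and 3 members, 8.89% of the members tested). FER ran from -0.16 to 0.19 with a library left out, with no call. With library totals alone DDX58 turned to 0.028, and IFIT3, IFI6, IFI27, USP18, UBE2L6, OAS3, ISG20 and MX2 also turned from negative to positive. CXCL11 ran from -0.27 (without shFer replicate 1) to 1.44 with a library left out. The median member level, 6.03 RPKM, was 8.61 with the length of the longest coding transcript, an alternative added after seeing the data. Without mitochondrial genes in the totals, the member shares were 0.421%, 0.416%, 0.387% and 0.373%. The share of matched members with the core response element, 61.1%, was 38.9% for its long form. Without the members of uncertain counting, also added later, 0 were called. The cause of these differences was not tested.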

Other observations

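Some members lie beside a pathway gene that was not among the 47, and these pairs were chosen after their values were seen. SAMD9L, the neighbour and paralog of SAMD9 on chromosome 7, had a log2 fold change of -0.63 (adjusted p = 0.0944), beside -0.85 for SAMD9, and DESeq2 gave SAMD9L an adjusted p of 0.0238. DTX3L, the ubiquitin ligase partner of PARP9 whose exons overlap 2.43% of those of PARP9, was at -0.30 (adjusted p = 0.389), beside -0.31 for PARP9. TRIM5, which lies on chromosome 11 as TRIM22 does, was at -0.33 (adjusted p = 0.274), beside 0.02 for TRIM22. CMPK2, whose exons overlap those of RSAD2, had 1 to 2 counts a library and was not tested. Per length, the secreted glycoprotein gene LGALS3BP was the highest of the pathway genes at 534 RPKM in control, below only IFITM3 among the members, and its log2 fold change was -0.43 (adjusted p = 0.112).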
